A study of Homo sapiens with 3 samples.

Results

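The 10 genes described here act in cholesterol efflux, ester storage or export from endosomes and lysosomes, or encode the liver X receptors (NR1H2 and NR1H3). They are ABCA1, ABCG1, NR1H2, NR1H3, SOAT1, NPC1, NPC2, APOE, LIPA and SCARB1. They were chosen by name, for these roles, out of the 51136 gene symbols of the count table, and all 10 were found in it. PANC-1, an established cell line from a human pancreatic ductal carcinoma, was sequenced without added agent (control), after 24 h with 200 µM ginsenoside Rg3 (Rg3), a saponin of ginseng, and after 24 h with 50 µM tamoxifen (TAM), an estrogen receptor modulator. The study combined each agent with cantharidin, Rg3 as an anti-angiogenic agent and TAM as an inhibitor of PKC, and these libraries profile each agent alone. The labels gave agent "none" for the control and named no vehicle, and each condition was 1 library of total RNA from the Ion Proton sequencer, so no difference below has a replicate check.

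Cells rid themselves of cholesterol by several linked routes. ABCA1 hands cholesterol and phospholipid to lipid-poor apolipoprotein A-I and ABCG1 loads the resulting particles further, and both genes are classic targets of the liver X receptors, nuclear receptors that pair with RXR and are switched on by oxysterols. Cholesterol that arrives in lipoproteins is freed from its esters in the lysosome by LIPA, passed by the soluble NPC2 to the membrane protein NPC1 and exported, and any surplus is esterified by SOAT1 in the endoplasmic reticulum and kept in lipid droplets. Cholesterol synthesis and uptake are governed by SREBP2, the factor that switches on both when membrane cholesterol is low.

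The upstream sequences of 4 members are shown first, 1 each for efflux, receptor, storage and export, because ABCA1 holds a direct repeat that the windows of the others do not. They are the 250 bases before the RefSeq transcript start in build GRCh38.p14, 5′ to 3′ on the strand of the gene, for the members with a single listed start: ABCA1 at chr9:104928156-104928405 on the minus strand, NR1H2 at chr19:50376207-50376456 on the plus strand, SOAT1 at chr1:179293547-179293796 on the plus strand and NPC1 at chr18:23586507-23586756 on the minus strand. Capitals mark every match on either strand to the motifs searched.
ABCA1: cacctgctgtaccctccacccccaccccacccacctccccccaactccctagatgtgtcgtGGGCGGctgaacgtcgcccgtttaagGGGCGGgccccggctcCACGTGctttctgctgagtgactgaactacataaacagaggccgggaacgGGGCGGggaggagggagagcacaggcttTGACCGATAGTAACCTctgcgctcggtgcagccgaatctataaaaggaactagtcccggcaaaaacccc
NR1H2: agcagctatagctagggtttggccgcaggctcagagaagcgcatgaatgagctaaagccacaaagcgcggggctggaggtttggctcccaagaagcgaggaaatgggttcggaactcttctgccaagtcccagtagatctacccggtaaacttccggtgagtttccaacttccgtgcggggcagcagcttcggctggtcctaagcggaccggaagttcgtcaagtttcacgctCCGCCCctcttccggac
SOAT1: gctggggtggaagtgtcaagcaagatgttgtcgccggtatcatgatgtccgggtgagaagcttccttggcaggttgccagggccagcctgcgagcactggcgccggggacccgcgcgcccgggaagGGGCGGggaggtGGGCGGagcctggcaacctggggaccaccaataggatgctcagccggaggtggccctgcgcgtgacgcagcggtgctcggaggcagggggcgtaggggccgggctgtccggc
NPC1: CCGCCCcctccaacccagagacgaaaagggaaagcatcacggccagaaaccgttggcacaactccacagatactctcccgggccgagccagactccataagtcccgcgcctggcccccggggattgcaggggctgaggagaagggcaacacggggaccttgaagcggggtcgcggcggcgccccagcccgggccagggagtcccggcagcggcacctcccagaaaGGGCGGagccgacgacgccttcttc

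The RefSeq table named 8 members, and the windows searched ran from 250 bases before to 50 bases after each of their 16 starts. ABCA1 alone among them held the arrangement that a liver X receptor with RXR is known to bind, the letters AGGTCA given 2 times in the same direction with 4 free bases between. Its match, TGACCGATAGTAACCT as printed above, lies at positions -69 to -54 from the start on the strand opposite to transcription, with 2 mismatches in the 12 fixed letters. At that tolerance 2.34% of 35116 human starts hold a match. The E-box CACGTG, the core of the TFEB motif GTCACGTG and so contained in it, was also found in ABCA1, at positions -147 to -142, against 7.26% of starts. The full GTCACGTG, held by 2.40% of starts, and the sterol regulatory element TCACNCCAC, held by 1.13%, were found in 0 of the 8 members. The GC box GGGCGG was found at 11 of the 16 starts of these genes, a motif that 45.0% of all starts hold. These matches describe letters in a window and not bound sites.

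**Figure D1:**
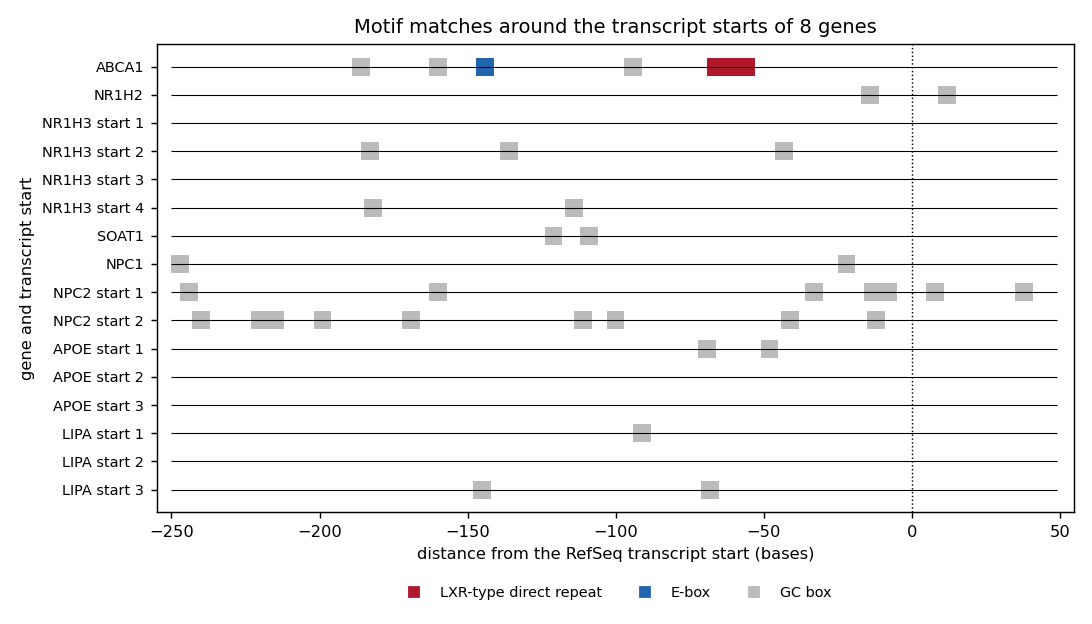
Motif matches around the RefSeq transcript starts of 8 members, 1 row for each listed start, against the distance from the start in bases (negative is upstream). The direct repeat and the E-box appear in the ABCA1 row, and GC boxes appear in at least 1 row of each of the 8 genes.

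The libraries held 11300766 reads in the control, 12861693 with Rg3 and 11321442 with TAM, and 22216 to 23138 genes had counts. Counts were scaled with TMM factors of 0.877 to 1.12. A gene with a count of 0 could have up to 3 counts, or 0.208 to 0.302 CPM. The Rg3 difference followed the GC content of the transcript across 11583 genes (Spearman's rho -0.82, a description over genes of the same libraries) and the TAM difference followed it the other way across 11022 genes (rho 0.52). With transcript length, rho over the same genes was 0.21 for the Rg3 difference and -0.48 for the TAM difference. Each member is therefore given as measured and again after the trend on GC content and length was removed. Of 4 keratins of PANC-1, 4 were detected, at a summed 2395 CPM in the control, 1080 with Rg3 and 2830 with TAM. With Rg3 4 were called lower by the exact binomial test used for the members (median log2 difference -1.42), where 16.2% of all genes were. With the trend removed 3 of them were, where 5.03% of all genes were. With TAM KRT19 was called lower (-1.67) and KRT7 higher (0.68), where 18.4% and 14.0% of all genes were. KRT19 alone of the 4 was called with TAM once the trend was removed (-2.20), where 11.3% were called lower. Of 8 macrophage markers, PTPRC, CSF1R, AIF1, CD163 and MARCO had 0 or 1 reads in each library and ITGAM 0 to 4. CD14 had 97, 46 and 37 reads in the control, Rg3 and TAM libraries, and CD68 had 615, 426 and 1100. The list summed to 62.5 CPM in the control, 32.7 with Rg3 and 115 with TAM. Most of that sum is CD68, and CD14 went the other way with TAM. Of 6 hepatocyte markers ALB, TTR, CYP3A4 and FGB were at 0 throughout, with a list sum of 2.42 to 8.36 CPM. Of 6 fibroblast markers COL1A1 and COL3A1 carried the reads, at a summed 181 CPM in the control, 76.5 with Rg3 and 87.2 with TAM, and DCN, LUM and PDGFRB had 0 to 4 reads. The part of these marker levels in the results was not tested. In bulk RNA, fewer cells that express a gene and less RNA per cell cannot be told apart.

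The efflux transporters stood lowest of the 10 genes in every library and were lower still in both treated libraries. In RPKM after TMM, which sets reads per length of transcript, the control order ran from SCARB1 at 59.7 through NPC2 at 39.0, NR1H2 at 37.2, LIPA at 15.8, APOE at 10.1, NPC1 at 10.00, NR1H3 at 4.6 and SOAT1 at 3.31 down to ABCA1 at 0.499 and ABCG1 at 0.477. The counting intervals of NPC2 and NR1H2, of APOE and NPC1, and of ABCA1 and ABCG1 overlapped, so those neighbours have no settled order. With Rg3, NPC2 stood first at 79.4, ahead of SCARB1 at 38.8 and LIPA at 34.7. With TAM, NPC2 at 58.4 and NR1H2 at 57.8 shared the top, ahead of SCARB1 at 45.1. ABCA1 was last in both treated libraries, at 0.0659 with Rg3 and 0.0480 with TAM, next to ABCG1 at 0.120 and 0.0580, with overlapping intervals each time.

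**Figure D2:**
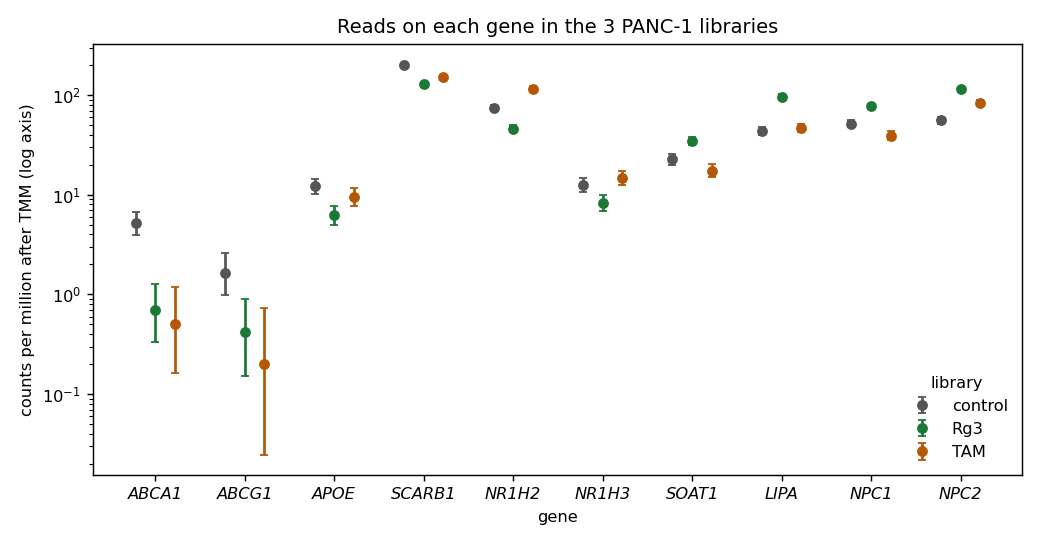
Level of the 10 genes in the 3 libraries, in CPM after TMM on a log axis and not set per length, with exact 95% counting intervals. ABCA1 and ABCG1 sit lowest, at 5.23 and 1.66 in the control, 0.692 and 0.415 with Rg3, and 0.504 and 0.201 with TAM. SCARB1 sits highest in each library.

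Reads of each treated library were compared with those of the control by an exact two-sided binomial test with Benjamini-Hochberg adjustment over all genes compared, and calls needed a fold above 1.5 or below 0.67 besides an adjusted p below 0.05. Every p below compares a pair of libraries and not the conditions, and every interval covers counting error only, at 95%. With Rg3, 3 of the 10 members were called higher (SOAT1, NPC2 and LIPA) where 20.2% of 16487 genes were, and 6 were called lower (ABCA1, ABCG1, NR1H2, NR1H3, APOE and SCARB1) where 16.2% were. The median log2 difference was -0.61 over the members and 0.04 over all genes. After the GC and length trend was removed, 3 were called higher (NPC1, NPC2 and LIPA) where 6.53% of 14279 genes were, and 2 lower (ABCA1 and ABCG1) where 5.03% were, with a median of -0.05 against 0.07 over all genes. With TAM, 1 member was called higher (NR1H2) where 14.0% of 16079 genes were, and 2 lower (ABCA1 and ABCG1) where 18.4% were, with a median of -0.37 against -0.02. With the trend removed 0 members were called higher with TAM where 9.55% of 14019 genes were, 10 having been compared, and 4 lower (ABCA1, ABCG1, APOE and SCARB1) where 11.3% were, with a median of -0.12 against -0.0045. The TAM counts of 1 and 2 in 10, before the trend was removed, stand near the shares over all genes. The comparisons share the control library.

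**Figure D3:**
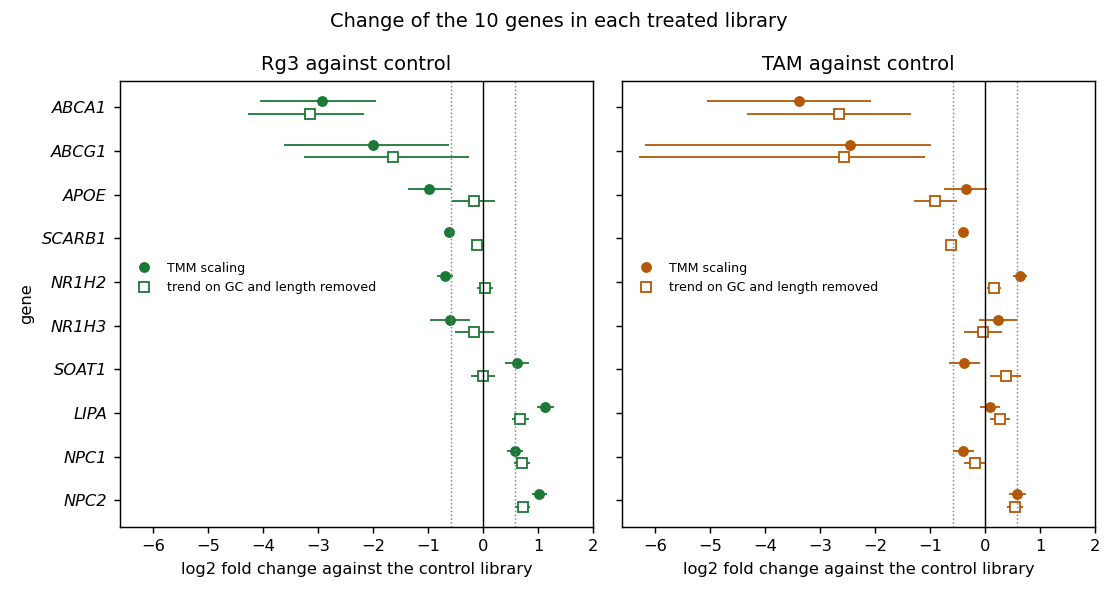
Log2 difference of each member from the control in the Rg3 and TAM libraries with exact 95% counting intervals, as measured and with the GC and length trend removed. ABCA1 and ABCG1 lie far to the left in both comparisons, and NR1H2 and SOAT1 lie near 0 in the Rg3 comparison after the trend was removed.

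ABCA1 (chr9:104781002-104928237, minus strand, GENCODE 29 on GRCh38), the efflux pump mutated in Tangier disease, had 60 reads in the control, 10 with Rg3 and 5 with TAM. Both treated libraries were far below the control. It was 7.56-fold lower with Rg3 (log2 -2.92, interval -4.05 to -1.94, adjusted p = 7.27e-12, exact binomial test) and 10.4-fold lower with TAM (log2 -3.38, interval -5.05 to -2.08, adjusted p = 7.84e-11, exact binomial test). Of the genes compared, ABCA1 itself included, 12 of 16487, or 0.0728%, lay as low or lower with Rg3, and 8 of 16079, or 0.0498%, with TAM. Counts below 3 were raised to 3 for a fold, so genes with few control reads could not reach so low a value and yet are among those compared. Both values lay below most genes of its GC content, 45.5%. The 922 genes within 1 point of that GC content had a Rg3 median of 0.32, with 10th and 90th percentiles of -0.22 and 0.80. Among 859 such genes the TAM median was -0.19, with percentiles of -0.96 and 0.45. These neighbours were not matched for length, and the ABCA1 transcript, at 10494 bases, is the longest of the 10. Removing the trend on GC content and length gave log2 differences of -3.14 with Rg3 and -2.65 with TAM. ABCA1 was also the 1 member still called in both comparisons when a biological variation of 0.2 was assumed in an edgeR exact test (adjusted p = 0.000989 with Rg3 and 0.000922 with TAM), and it was not called at an assumed 0.4.

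ABCG1 (chr21:42199689-42297244, plus strand), the transporter that adds cholesterol to maturing HDL, had 19 reads in the control, 6 with Rg3 and 2 with TAM. These counts are small, and the order of the 3 libraries is that of ABCA1. The log2 difference was -2.0 with Rg3 (interval -3.61 to -0.62, adjusted p = 0.00384, exact binomial test). With TAM the ratio of the counts was -3.04 on the log2 scale (interval -6.19 to -0.99, adjusted p = 0.00152, exact binomial test), and -2.46 with the TAM count raised to 3. Removing the trend gave -1.64 with Rg3 and -2.57 with TAM, both called. The TAM value again has the count raised to 3, so it is to be set beside -2.46 and not -3.04.

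NR1H2 (chr19:50329653-50382982, plus strand), which encodes the widely expressed LXR beta, had 851 reads in the control, 666 with Rg3 and 1146 with TAM. The treated libraries lay on opposite sides of the control, at log2 -0.69 with Rg3 (interval -0.84 to -0.54) and 0.64 with TAM (interval 0.51 to 0.77). Both values are near those of genes of its GC content, 63.0%, whose medians were -0.63 with Rg3 and 0.44 with TAM, and with the trend removed they were 0.04 and 0.16, neither called. NR1H3 (chr11:47248300-47269032, plus strand), which encodes LXR alpha, the isoform of liver and macrophages, had 144, 120 and 146 reads in the same order of libraries. It was called lower with Rg3 (log2 -0.60, interval -0.96 to -0.24) and gave 0.23 with TAM (interval -0.11 to 0.57, not called). Once the trend was removed these became -0.16 and -0.04, not called. Neither receptor was called in either comparison once the trend was removed.

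APOE (chr19:44905754-44909393, plus strand), the apolipoprotein that accepts exported cholesterol, had 140 reads in the control, 90 with Rg3 and 95 with TAM. Both treated counts were below the control. The log2 difference was -0.97 with Rg3 (interval -1.37 to -0.58, called) and -0.35 with TAM (interval -0.74 to 0.03, not called). APOE has the highest GC content of the 10, 68.5%, where 86 genes within 1 point had a Rg3 median of -0.74. Removing the trend changed both calls, to -0.17 with Rg3, not called, and -0.90 with TAM, called. SCARB1 (chr12:124776856-124882668, minus strand), the HDL receptor that moves cholesterol both ways across the membrane, was the most read member, with 2279, 1866 and 1492 reads. Its log2 difference was -0.62 with Rg3 (interval -0.71 to -0.53, called) and -0.40 with TAM (interval -0.50 to -0.31, not called, the fold being short of the limit). After its removal SCARB1 was at -0.10 with Rg3, not called, and -0.62 with TAM, called.

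SOAT1 (chr1:179293714-179358680, plus strand), the enzyme that esterifies surplus cholesterol, had 260 reads in the control, 501 with Rg3 and 173 with TAM. It was called higher with Rg3 (log2 0.61, interval 0.39 to 0.83) and not called with TAM (-0.38, interval -0.67 to -0.10). It has the lowest GC content of the 10, 40.0%, and genes of that GC content had medians of 0.73 with Rg3 and -0.54 with TAM. Once the trend was removed SOAT1 stood at -0.0069 with Rg3 and 0.37 with TAM, neither called.

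The lysosomal genes LIPA, NPC2 and NPC1 lay above the 90th percentile of genes of their GC content with Rg3. LIPA (chr10:89213569-89414557, minus strand), lysosomal acid lipase, had 504 reads in the control, 1395 with Rg3 and 462 with TAM. The Rg3 library stood above the other pair, at 2.20-fold the control (log2 1.13, interval 0.99 to 1.28, adjusted p = 1.54e-55, exact binomial test), against 0.08 with TAM (interval -0.10 to 0.27). The 994 genes of its GC content had a median of 0.55 with Rg3 and a 90th percentile of 1.01. NPC2 (chr14:74476192-74494177, minus strand), the soluble carrier, had 642, 1647 and 833 reads. It was 2.04-fold higher with Rg3 (log2 1.03, interval 0.89 to 1.16, adjusted p = 8.62e-56, exact binomial test), where 947 genes of its GC content had a median of 0.44 and a 90th percentile of 0.86. With TAM it was at 0.58 (interval 0.43 to 0.73), a fold of 1.498 and so just short of the limit. NPC1 (chr18:23506184-23586898, minus strand), the membrane exporter, had 591, 1112 and 388 reads. Its Rg3 fold of 1.493 (log2 0.58, interval 0.43 to 0.72) also just missed the limit, while the 706 genes of its GC content had a median of -0.08 and a 90th percentile of 0.44. Without the trend the Rg3 values were 0.68 for LIPA, 0.72 for NPC2 and 0.70 for NPC1, all called, and the TAM values were 0.27, 0.54 and -0.19, none called. Exons of RMC1 on the opposite strand, read 160, 353 and 145 times, overlap 183 bases or 3.55% of the NPC1 transcript, and whether the counts used strand is not given in the sources used here.

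**Figure D4:**
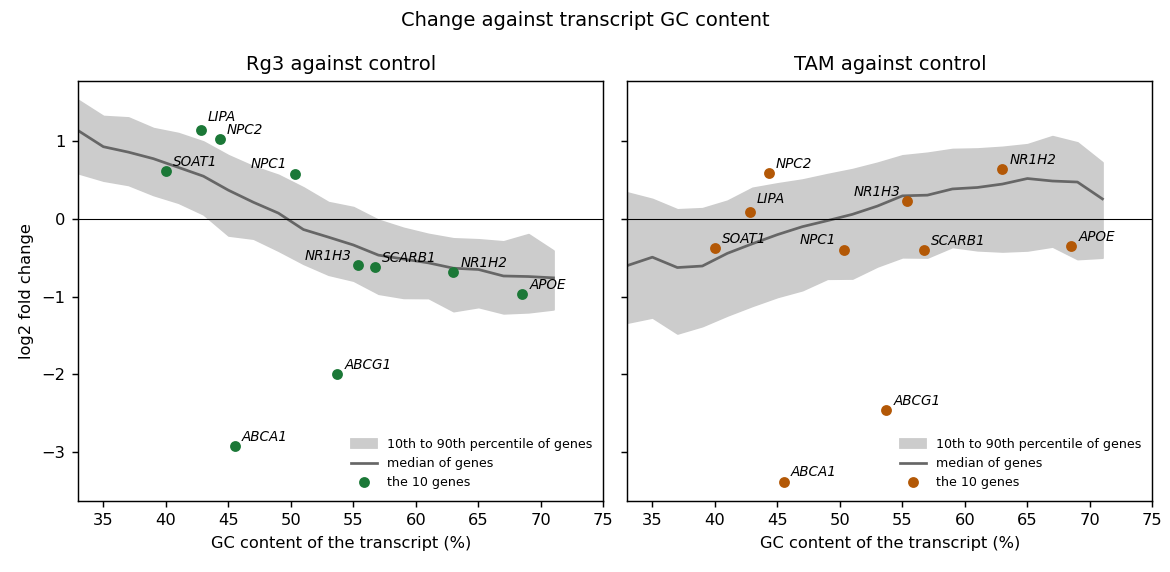
Median log2 difference from the control in bins of transcript GC content, with the 10 members marked at their own GC content, for the Rg3 and TAM libraries. ABCA1 and ABCG1 lie far below genes of like GC content in both panels, while NR1H2, SOAT1 and SCARB1 follow the bin medians with Rg3.

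Between the treated libraries, which differ in agent and dose, LIPA had the largest Rg3-over-TAM ratio among the members compared (log2 1.05, interval 0.90 to 1.21), followed by SOAT1 (0.99, interval 0.74 to 1.25) and NPC1 (0.98, interval 0.81 to 1.15). The intervals of LIPA, SOAT1 and NPC1 overlap, so they have no settled order. Without the trend NPC1 was at 0.95, LIPA at 0.46 and SOAT1 at -0.32. APOE went from -0.62 to 0.82 and SCARB1 from -0.22 to 0.59 when the trend was removed, both then above LIPA. NR1H2 was at -1.32 (interval -1.46 to -1.19) and at -0.05 with the trend removed. ABCA1, with 10 and 5 reads, gave 0.46 with an interval of -1.22 to 2.36, and -0.43 with the trend removed (interval -2.11 to 1.47), so its levels in the treated libraries were not distinguishable at this depth. ABCG1 had too few reads in both for this ratio.

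Some of the other genes listed as LXR targets were called lower in each treated library, more of them beyond the GC and length trend with TAM. Of 18 listed, 11 had enough reads. With Rg3 0 were called higher and 5 lower (exact binomial test, as above), where 20.2% and 16.2% of all genes were. SREBF1, MYLIP, ABCA7 and APOC1 were among the 5, and the list had a median of -0.66. After the trend was removed the median was -0.13. MYLIP alone of the list was then called, lower, where 5.03% of all genes were. With TAM 1 was called higher, APOC1, and 4 lower, SREBF1, MYLIP, LPCAT3 and MLXIPL, where 14.0% and 18.4% of all genes were. The list had a median of -0.76. The 4 stayed called lower with the trend removed, where 11.3% of all genes were. SREBF1, which encodes the lipogenic factor SREBP1, had 3722 reads in the control, 2444 with Rg3 and 701 with TAM. Its log2 difference was -0.94 with Rg3 (-0.13 with the trend removed) and -2.20 with TAM (interval -2.32 to -2.08, -2.41 with the trend removed). MYLIP, a ubiquitin ligase, had 93, 66 and 31 reads, at -0.83 and -1.38. LPCAT3, a phospholipid remodelling enzyme, had 411 reads in the control and 210 with TAM (-0.76). MLXIPL had 34 and 11 reads, and it, APOC1 with Rg3, CYP39A1, GRAMD1C, OSBP with Rg3 and the other genes named without a value here fall outside the naming rule and were chosen after their values were seen.

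**Figure D5:**
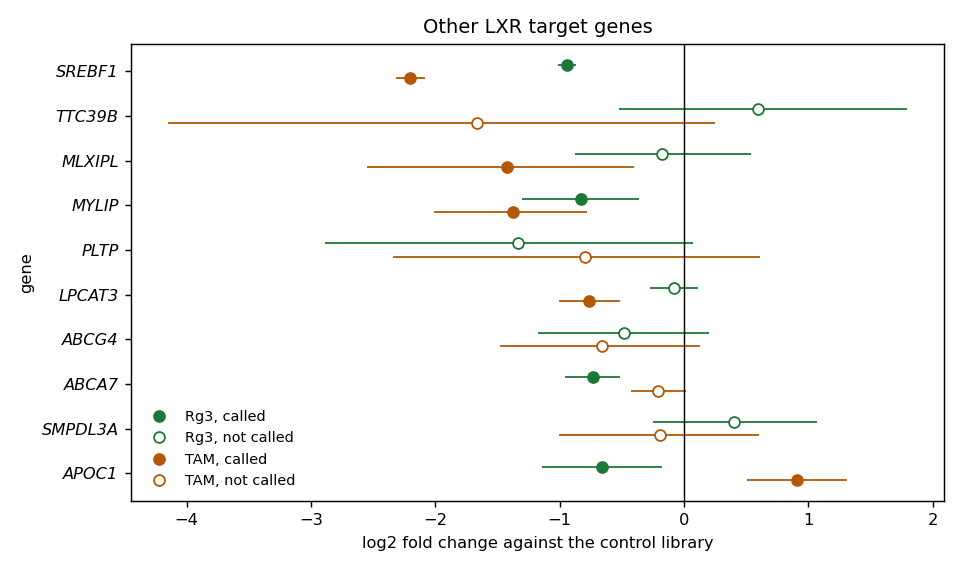
Log2 difference from the control of 10 of the 11 other LXR target genes compared (the other is not reported here) in the Rg3 and TAM libraries, with exact 95% counting intervals. SREBF1 lies at -0.94 with Rg3 and -2.20 with TAM.

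Of 9 measured LXR partners and corepressors, 1 was called higher and 2 lower with Rg3 (NCOA1 went from 155 to 356 reads and RXRA from 765 to 526), and 0 in either direction with the trend removed. These Rg3 counts stand near the shares over all genes of 20.2% higher and 16.2% lower. With the trend removed the shares over all genes were 6.53% and 5.03%. With TAM they were 14.0% and 18.4%, and 9.55% and 11.3% with the trend removed. With TAM 2 were called higher, RXRA and GPS2 (0.63), and 3 lower, NCOA2 at -1.61, NCOR1 at -1.20 and NCOA1 at -0.69, with NCOA2 alone of the list still called (-0.89) after the trend was removed. Of 3 oxysterol enzymes measured with Rg3, SULT2B1, which sulfates sterols, was lower at 108 and 51 reads (-1.42), and CYP39A1 was higher, at 1 and 17 reads. Of the 2 compared with TAM 0 were called in either direction, and SULT2B1 was called lower with the trend removed. Of 7 ester storage and hydrolysis genes 0 were called with Rg3 in either direction, with or without the trend. With TAM 3 were called lower, LIPE, NCEH1 and PNPLA2 (-1.0, -0.75 and -0.68), of which LIPE and PNPLA2 were called with the trend removed.

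Over all genes 20.2% were called higher and 16.2% lower with Rg3, and 6.53% and 5.03% with the trend removed. Of 18 lysosomal and contact-site transport genes, 7 were called higher and 2 lower with Rg3, against 3 (STARD4, TMEM97 and OSBP) and 0 with the trend removed. The highest were STARD4, which ferries sterol between membranes, at 45 and 371 reads (2.71), and TMEM97, a protein that binds NPC1, at 300 and 1459 reads (1.95), and both are also in the SREBP2 list. LAMP2 and OSBPL9 were at 0.90 and 0.87 and were not called once the trend was removed. With TAM 1 was called higher, STARD3NL at 0.81, and 5 lower, namely LAMP2, OSBPL9, OSBP, STARD4 and GRAMD1C, against 2 (STARD3NL and VAPA) and 0 with the trend removed. Over all genes 14.0% were called higher and 18.4% lower with TAM, and 9.55% and 11.3% with the trend removed. Of 17 SREBP2 targets compared, 17 were called higher with Rg3, with a median of 2.26 (2.09 with the trend removed), while with TAM 4 were called higher and 2 lower, and 1 and 0 with the trend removed. Of 15 lysosomal genes controlled by TFEB, 2 were called higher with Rg3, NEU1 (1.23) among them, and 3 lower, and with the trend removed 3 and 0. Before the trend was removed these shares of 15 were near those over all genes, 20.2% and 16.2%. With TAM 5 of 14 were called higher and 1 lower, and 1 and 0 with the trend removed. Of 5 genes listed as HDL and lipoprotein partners, 2 were called higher with Rg3, VLDLR (0.88) among them, and ABCC1 (-1.21) and LRP1 (-0.86) lower. The part of ABCC1 in HDL handling was not tested. Of these 3 named genes ABCC1 was also called with the trend removed. With TAM ABCC1 and LRP1 were called lower, at -1.15 and -1.12, and were also called with the trend removed.

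Among the 11096 genes with at least 100 counts in a library, the 5 whose pair of log2 differences lay closest to that of ABCA1, by Euclidean distance over the 3 libraries, were the mitochondrial tRNA gene TRND, the collagen gene COL6A3, the epithelial transcription factor GRHL3, SUSD2 and the tight junction gene TJP3. TRND had 128, 36 and 15 reads in the control, Rg3 and TAM libraries, at a distance of 0.90 log2 units. COL6A3 had 116, 42 and 10 reads, at 1.12, and TJP3, the last of the 5, was at 1.91.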

How the data were processed

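RNA-seq of total RNA from PANC-1 cells gave 3 libraries: control, Rg3 (200 µM, 24 h) and TAM (50 µM, 24 h). The authors deposited 1 table of raw counts per gene symbol, not normalized. The submitters' processing notes name GRCh38, and the study's methods name TopHat for mapping, while the counting tool, annotation and strand setting are not given in the sources used here. The study's limma criteria (fold over 1.5 or under 0.67 with an adjusted p under 0.05) were kept, but limma needs replicates, so the reads of each pair of libraries were compared by an exact binomial test, two-sided.

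Counts were scaled by TMM (edgeR 4.0.16 in R 4.3.3, on genes with at least 10 counts in a library). A gene entered a comparison with 10 counts or more in either library, p-values were adjusted over all of them by Benjamini-Hochberg, and 3 replaced any smaller count when a fold was computed. Intervals are exact (Clopper-Pearson, 95%) and cover counting error only, since they rest on the counts of 1 library per condition. Reads without molecular identifiers are not independent molecules, so the intervals may be too narrow even for counting error. Transcript length and GC content came from GENCODE 29, and the trend was a loess fit (span 0.3) on genes with at least 50 counts, its median kept. Neighbours in GC content were genes within 1 point. The alternatives were library totals, DESeq2 1.42.0 size factors, a minimum of 1 or 50 counts, fold alone, an edgeR exact test with an assumed variation of 0.2 or 0.4, and the trend removed. The steps were tested on simulated data.

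All 10 members are named. From each list of related genes, up to 4 called genes with at least 50 counts and the largest difference are named, and the 5 genes nearest to ABCA1. Values of some listed genes are not reported here. Members and lists were chosen with earlier results of these data known.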

Additional observations from a re-analysis of the deposited data

How the results depend on the processing

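Each condition has 1 library, so the spread between cultures is unknown, no replicate could be left out and the counting intervals are too narrow for a statement on the conditions. No paired analysis was possible because the labels give 1 sample a condition. The depth leaves ABCG1 with 2 to 19 reads and ABCA1 with 5 to 60. Scaling by library totals moved the median of all genes from 0.04 to 0.18 with Rg3 and from -0.02 to -0.23 with TAM, so those values are read against it.

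With Rg3 the 3 members called higher became 4 with library totals and 4 with DESeq2 size factors, NPC1 being added, and 0 at an assumed variation of 0.2 and 0 at 0.4. The 6 called lower became 3 with library totals, 5 with at least 50 counts, 1 at 0.2, 0 at 0.4 and 2 with the GC and length trend removed. With TAM the 1 called higher became 0 with library totals, 2 with DESeq2 size factors, 0 at 0.2, 0 at 0.4 and 0 with the trend removed. The 2 called lower became 5 with library totals, 1 with at least 50 counts, 1 at 0.2, 0 at 0.4 and 4 with the trend removed. The stricter filter leaves ABCG1 out, and the assumed variation widens the test by construction. Another scaling shifts every gene of a comparison by the same amount, which carries values near a limit across it. With library totals NPC1 went from 0.58 to 0.73 with Rg3 and SOAT1 from -0.38 to -0.59 with TAM. For the trend the cause was not tested. Removing the trend turned the sign of NR1H2 (0.0412) and SOAT1 (-0.0069) with Rg3 and of NR1H3 (-0.0435) and SOAT1 (0.37) with TAM. With library totals LIPA turned to -0.13 with TAM. Of the Rg3-over-TAM ratios, ABCA1 (-0.43, both intervals spanning 0), SOAT1 (-0.32), APOE (0.82) and SCARB1 (0.59) turned with the trend removed, and SCARB1 (0.14) also with library totals. Over the 20 member values, fold alone and a minimum of 1 count left all 20 calls unchanged. Neither setting alters a member's fold, so only the condition on p could have changed a call. ABCA1 was called lower in both comparisons under each alternative but an assumed variation of 0.4.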
